A study of Mus musculus with 12 samples.

Results

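The mammalian circadian clock and the PAR bZIP factors it drives were followed in lung CD4+ T cells of neonatal and juvenile mice as 10 genes: Hlf, Dbp, Tef, Nr1d1, Nr1d2, Per1, Per2, Per3, Arntl and Clock. These 10 were taken by symbol from the 19434 genes of the count table, and all 10 passed the filter on low counts that left 11062 genes for testing. The set was chosen by its names with earlier results of the same counts in view, so the values and adjusted p-values of its members describe these libraries and support nothing further. Helper (CD4+) T cells came from the lungs of male and female mice of strain C57BL/6NJ, by bead enrichment followed by flow sorting. The mice had aspirated 2800000 colony-forming units of Escherichia coli (E. coli) or, as the control, PBS, a buffered saline, and lungs were taken 48 h later. Juveniles aspirated on day 15 of life and neonates on day 5. The 4 groups were juvenile E. coli, juvenile PBS, neonatal E. coli and neonatal PBS, with 3 libraries each. Each library was a pool of 2 juvenile or 3 neonatal mice, so n = 3 counts pools, and age and pool size cannot be told apart. The hour of the day at which the mice aspirated or were killed is not stated in the labels. Its part in every difference below was not tested.

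The clock is a transcriptional feedback loop that runs in nearly every cell. CLOCK (Clock) and BMAL1 (Arntl) bind E-boxes and switch on the Per and Cry genes, whose proteins return to inhibit them. They also switch on the nuclear receptors REV-ERB alpha (Nr1d1) and REV-ERB beta (Nr1d2), which repress Arntl at RORE elements. The 3 PAR bZIP factors DBP, TEF and HLF are outputs of the loop that bind D-boxes, where the repressor NFIL3 competes with them. In T cells the clock is known for daily changes in trafficking and in cytokine production, and NFIL3 and REV-ERB alpha are known regulators of type 17 helper T cells.

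Promoters of 9 of the 10 genes (all but Per2) were matched by symbol to a RefSeq table (build GRCm38.p6), which gives 250 bases before and 50 after each annotated start. They were searched on both strands for the E-box CACGTG, its variant CACGTT, the D-box as TTATGTAA or TTATGCAA, the RORE core as TAGGTCA or TGGGTCA, and the cyclic AMP response element (CRE) TGACGTCA. The 4 upstream sequences below are those of the 2 members whose levels differed most between groups (Hlf and Dbp), of Per1, which held both an E-box and a D-box, and of Per3, which held the D-box in 2 places. Capitals mark the motif letters. The Hlf sequence is chr11:90390918-90391167 on the minus strand, Dbp is chr7:45704997-45705246 on the plus strand, Per1 is chr11:69098699-69098948 on the plus strand and Per3 is chr4:151044666-151044915 on the minus strand.
Hlf: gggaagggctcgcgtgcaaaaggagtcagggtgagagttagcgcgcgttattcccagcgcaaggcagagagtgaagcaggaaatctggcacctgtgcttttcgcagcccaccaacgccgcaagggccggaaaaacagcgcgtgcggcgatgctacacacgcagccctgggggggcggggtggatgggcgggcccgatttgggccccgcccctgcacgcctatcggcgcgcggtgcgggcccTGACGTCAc
Dbp: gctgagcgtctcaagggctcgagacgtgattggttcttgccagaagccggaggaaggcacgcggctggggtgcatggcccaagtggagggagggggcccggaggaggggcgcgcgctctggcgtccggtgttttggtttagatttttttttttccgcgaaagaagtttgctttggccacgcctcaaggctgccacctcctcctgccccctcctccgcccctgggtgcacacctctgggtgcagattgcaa
Per1: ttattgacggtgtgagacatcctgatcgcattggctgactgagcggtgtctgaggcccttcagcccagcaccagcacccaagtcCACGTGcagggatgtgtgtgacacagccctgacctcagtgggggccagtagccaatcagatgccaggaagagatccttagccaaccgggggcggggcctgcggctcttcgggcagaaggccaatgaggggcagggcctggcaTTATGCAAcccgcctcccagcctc
Per3: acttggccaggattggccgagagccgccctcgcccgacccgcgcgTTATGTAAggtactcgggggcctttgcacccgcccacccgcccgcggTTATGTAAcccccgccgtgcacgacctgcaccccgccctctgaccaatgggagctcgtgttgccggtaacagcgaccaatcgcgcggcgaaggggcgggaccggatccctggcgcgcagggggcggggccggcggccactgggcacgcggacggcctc
The CRE of Hlf began at base -9 from the annotated start. Per1 held CACGTG at -166 and TTATGCAA at -24, and Per3 held TTATGTAA at -205 and -158. The window of another annotated Per1 start (chr11:69099902-69100201) held no searched motif. None of the searched letters was in the Dbp window. Among the other members, Tef held CACGTG upstream of both of its annotated starts, at -127 and at -138, Nr1d1 held CACGTT at -28, and Arntl held TAGGTCA at base 31 after the start. Neither Clock nor Nr1d2 held a searched motif. Of 32851 promoters of the same length, 7.15% held CACGTG, 4.69% CACGTT, 1.66% either D-box spelling, 6.45% either RORE core and 1.79% the CRE. A match in these windows is a run of letters and is not evidence that the factor bound there.

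Each library held between 6035445 and 8129983 gene counts. At this depth 3 counts, the number that a count of 0 allows, correspond to 0.374 to 0.494 CPM (counts scaled to a common library total), and such floors cover counting error only. No 2 libraries of a group agreed within counting error. The 9 counted T cell identity genes, Cd4 and the 3 CD3 chains among them, summed to 4634 to 5009 CPM in juvenile E. coli libraries, 5708 to 6319 CPM in juvenile PBS, 4856 to 5138 CPM in neonatal E. coli and 4978 to 5634 CPM in neonatal PBS libraries, with none at 0. In juvenile E. coli against juvenile PBS, 5 of these 9 fell and 0 rose (edgeR, adjusted p under 0.05), beside 9.42% and 15.4% of all genes tested. Markers of other cells were also present. At both ages the highest sums of monocyte and macrophage, lung epithelial and B cell markers came after E. coli. In neonates the macrophage and the epithelial sums overlapped between E. coli and PBS, and the highest endothelial sum came after PBS. The 10 monocyte and macrophage markers summed to 322.8 to 637.9 CPM in juvenile E. coli, 127.4 to 307.6 CPM in juvenile PBS, 210.8 to 414.4 CPM in neonatal E. coli and 136.0 to 261.1 CPM in neonatal PBS libraries. The 10 lung epithelial markers summed to 91.2 to 206.2 CPM in juvenile E. coli, 35.8 to 42.1 CPM in juvenile PBS, 63.4 to 174.5 CPM in neonatal E. coli and 46.9 to 84.6 CPM in neonatal PBS libraries. The 7 counted B cell markers summed to 62.6 to 82.1 CPM in juvenile E. coli, 41.4 to 62.0 CPM in juvenile PBS, 41.5 to 61.0 CPM in neonatal E. coli and 28.5 to 37.8 CPM in neonatal PBS libraries, without overlap between E. coli and PBS at either age. The 10 endothelial markers summed to 260.6 to 279.7 CPM in juvenile E. coli and 261.8 to 269.1 CPM in juvenile PBS libraries. They summed to 283.4 to 337.2 CPM in neonatal E. coli and 314.8 to 359.0 CPM in neonatal PBS libraries. Of the 8 tested, 4 rose and 1 fell in juveniles after E. coli (edgeR), beside 15.4% and 9.42% of all genes. In neonates 0 were called, beside 1.05% higher and 0.145% lower, with 0 also at an unadjusted p under 0.05, beside 12% of all genes. The 10 neutrophil markers summed to 9.02 to 22.3 CPM in juvenile E. coli and 0.330 to 4.03 CPM in juvenile PBS libraries. They summed to 10.3 to 53.7 CPM in neonatal E. coli and 0.695 to 2.08 CPM in neonatal PBS libraries, without overlap between E. coli and PBS at either age. Of the 4 tested, 3 rose and 0 fell after E. coli at each age (edgeR). Of all genes, 15.4% rose and 9.42% fell in juveniles and 1.05% and 0.145% in neonates. Elane, a granule protease of immature neutrophils, was at 0 in all 12. In sorted bulk cells, fewer cells of a type and less RNA per cell cannot be told apart, and what these markers contributed to the clock values was not tested.

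Most of the 10 genes did not pass the test in any contrast, and the calls that held lay in the PAR bZIP factors. In juveniles, Dbp fell after E. coli to 0.351 of its PBS level, and Hlf was 4.77-fold higher in juvenile than in neonatal PBS libraries. The count of members called is given for each of the 5 contrasts at an adjusted p under 0.05 (edgeR quasi-likelihood test, adjusted over all 11062 genes). In juvenile E. coli against juvenile PBS, 0 of the 10 were higher and 1 was lower (Dbp), beside 15.4% of all genes tested higher and 9.42% lower. This balance depends on scaling, with 1705 genes higher and 1042 lower here but 1468 higher and 1415 lower under upper-quartile scaling. In neonatal E. coli against neonatal PBS, 0 of the 10 were called, beside 1.05% of all genes higher and 0.145% lower. There edgeR gave 3 members an unadjusted p under 0.05 (Hlf, Nr1d1 and Per1, all higher), against 12% of all genes, while DESeq2 called 0 members and limma voom called 1 (Per1, higher). The test of the difference between the juvenile and the neonatal response also called 0 of the 10, beside 5.05% of all genes higher and 1.94% lower. In that test edgeR gave 1 member (Dbp) an unadjusted p under 0.05, against 22.19% of all genes, while DESeq2 called 0 and limma voom 2 (Dbp and Per1, both lower). Between ages, juvenile PBS against neonatal PBS had 1 member higher (Hlf) and 0 lower, beside 1.75% and 2.32% of all genes. Juvenile E. coli against neonatal E. coli had 2 members higher (Hlf and Arntl) and 0 lower, beside 11.3% and 6.42% of all genes.

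The median log2 fold change of the 10 genes was 0.11 in juvenile E. coli against juvenile PBS and 0.13 in neonatal E. coli against neonatal PBS, where all genes tested had medians of -0.01 and -0.00. It was -0.22 for the juvenile minus the neonatal response, 0.20 for juvenile against neonatal PBS and 0.03 for juvenile against neonatal E. coli, and the medians over all genes lay between -0.02 and 0.01. These contrasts share libraries with one another, so they are not independent of each other.

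**Figure D1:**
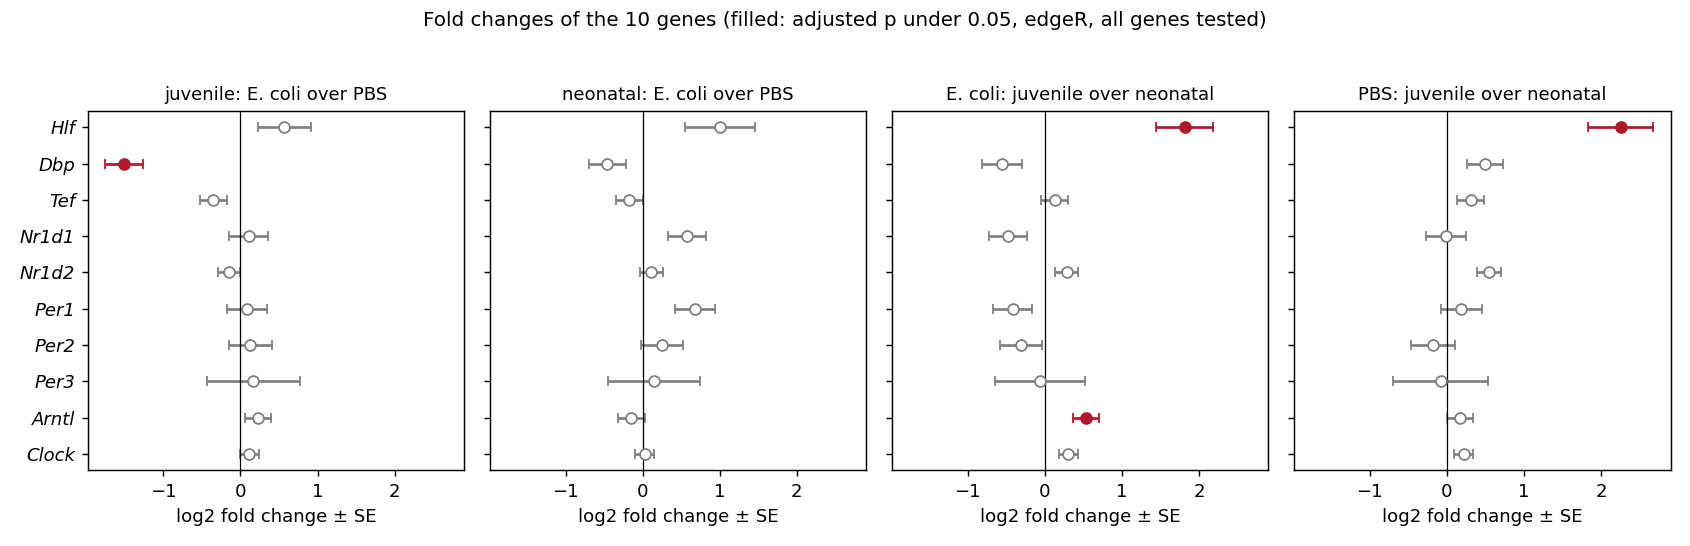
Log2 fold change ± SE (horizontal) of the 10 genes (vertical) in 4 contrasts, with filled points for an adjusted p under 0.05 in edgeR over all genes tested. Dbp at -1.51 in juveniles after E. coli, Hlf at 1.82 and 2.26 between ages and Arntl at 0.54 between E. coli groups are the filled points.

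Levels were divided by kilobases of annotated exon, taken over all transcripts of a gene (GENCODE M21). This corrects for exon length alone, and the annotation used for counting is not stated. On that scale Per1 was the highest of the 10 in all 4 groups. It had 8.81 ± 2.13 CPM per kilobase in juvenile E. coli, 8.33 ± 3.65 in juvenile PBS, 11.8 ± 1.95 in neonatal E. coli and 7.30 ± 1.52 in neonatal PBS libraries (SD, n = 3 each). Per3 was the lowest in all 4, at 0.276 ± 0.0403 CPM per kilobase in juvenile E. coli, 0.243 ± 0.200 in juvenile PBS, 0.289 ± 0.0554 in neonatal E. coli and 0.261 ± 0.146 in neonatal PBS libraries. Nr1d2 and Clock held ranks 2 to 4 in every group, at 3.37 to 4.92 and 3.47 to 4.36 CPM per kilobase. In juvenile PBS libraries the order from high to low was Per1, Nr1d2, Clock, Dbp, Arntl, Hlf, Nr1d1, Tef, Per2 and Per3. There Arntl (2.47 ± 0.240), Hlf (2.42 ± 0.483) and Nr1d1 (2.37 ± 0.277) differed by less than their spread. In neonatal PBS libraries the order was Per1, Clock, Nr1d2, Nr1d1, Dbp, Arntl, Tef, Per2, Hlf and Per3, and neither Clock and Nr1d2 (3.47 ± 0.387 and 3.37 ± 0.364) nor Nr1d1, Dbp and Arntl (2.41 ± 0.468, 2.30 ± 0.638 and 2.19 ± 0.470) were apart beyond their spread. The rank of Hlf differed most, from 4 in juvenile E. coli and 6 in juvenile PBS to 9 in both neonatal groups. Dbp ranked 8 in juvenile E. coli, 4 in juvenile PBS, 6 in neonatal E. coli and 5 in neonatal PBS libraries.

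**Figure D2:**
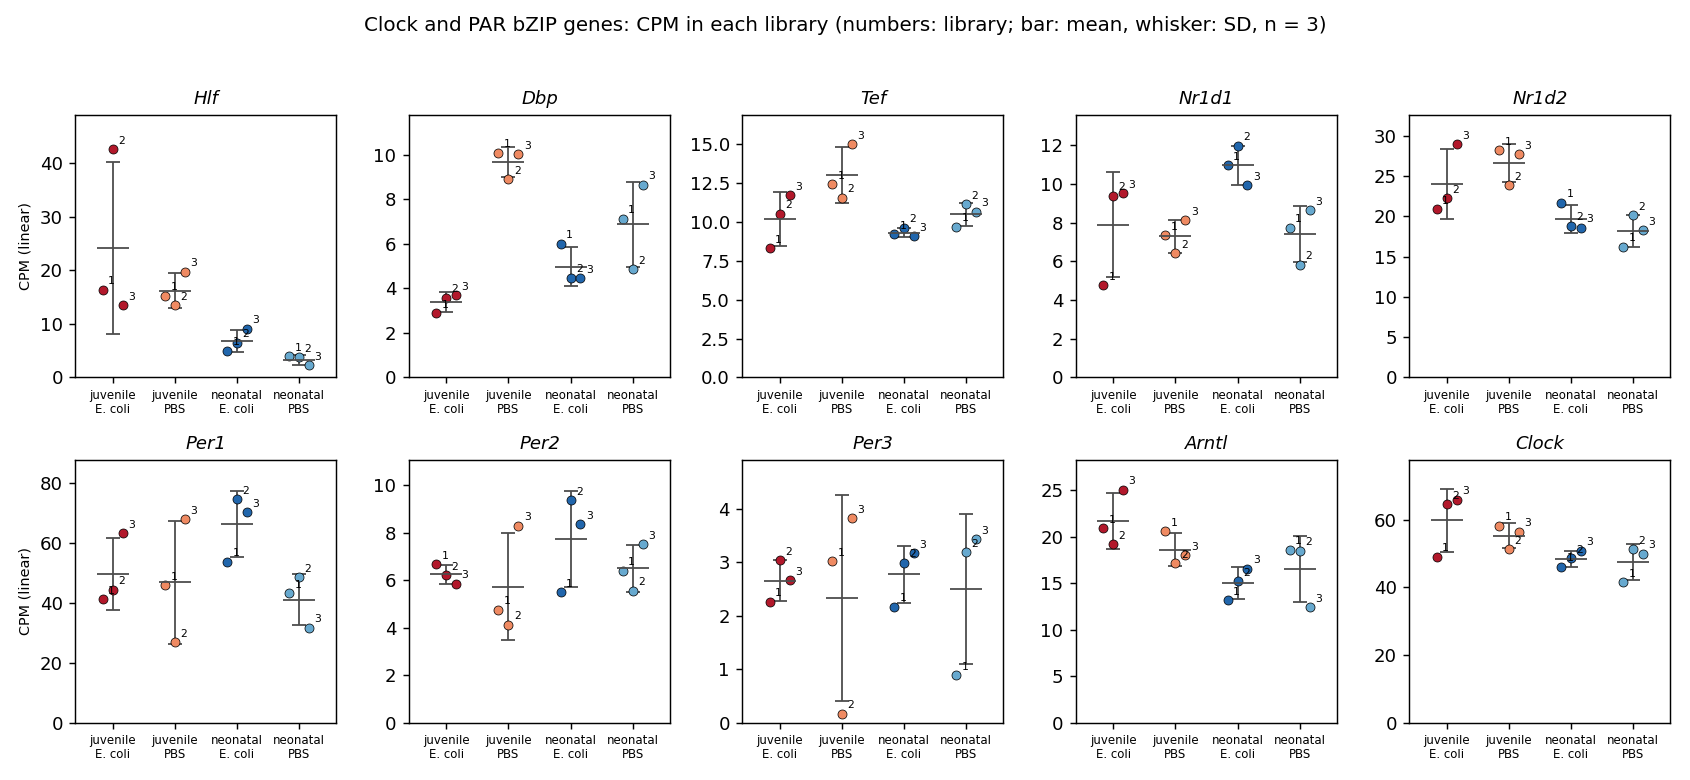
CPM (vertical, linear) of each of the 10 genes in the 12 libraries, by group (horizontal), with numbered points for libraries, bars for means and whiskers for SD (n = 3). Hlf is high in juvenile E. coli library 2 (42.5 CPM), Dbp is lowest in juvenile E. coli (2.89 to 3.69 CPM), and Per3 is near 0 in juvenile PBS library 2 (0.165 CPM).

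Hlf (chromosome 11, 90336536 to 90390895, GRCm38) encodes hepatic leukemia factor, a PAR bZIP activator also known as a regulator of blood stem cells. It had 16.4, 42.5 and 13.5 CPM in juvenile E. coli libraries, 15.3, 13.5 and 19.8 CPM in juvenile PBS, 4.98, 6.48 and 9.07 CPM in neonatal E. coli and 4.01, 3.75 and 2.29 CPM in neonatal PBS libraries. All 6 juvenile libraries lay above all 6 neonatal ones. The means were 24.1 ± 16.0 CPM in juvenile E. coli, 16.2 ± 3.23 CPM in juvenile PBS, 6.84 ± 2.07 CPM in neonatal E. coli and 3.35 ± 0.931 CPM in neonatal PBS (SD, n = 3 each). Hlf was higher in juvenile than in neonatal PBS libraries by 2.26 ± 0.42 (log2 ± SE, edgeR adjusted p = 0.00739), and in juvenile than in neonatal E. coli libraries by 1.82 ± 0.37 (adjusted p = 0.00304). Both were called in all 21 alternative analyses, with adjusted p from 3.89e-06 to 0.0401 and from 2.8e-05 to 0.0229. Juvenile E. coli library 2 alone moved the second value strongly, and without it the log2 fold change was 1.13 (adjusted p = 0.0131). That library was also the highest of its group in monocyte and macrophage markers (637.9 CPM) and in epithelial markers (206.2 CPM). The part of those cells in the Hlf value was not tested.

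The responses of Hlf to infection did not pass the test. In neonates the E. coli libraries lay above the PBS libraries with no overlap, at a log2 fold change of 1.01 ± 0.45 (edgeR adjusted p = 0.389, and 0.107 to 0.676 over the alternatives). In juveniles the groups overlapped and the log2 fold change was 0.57 ± 0.35 (adjusted p = 0.248). It was 0.90 in limma voom with sample weights, where the adjusted p was 0.0461, and -0.12 without juvenile E. coli library 2. The juvenile minus the neonatal response was -0.44 ± 0.57 (adjusted p = 0.704).

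Dbp (chromosome 7, 45705088 to 45710203) encodes the D-box binding protein, a standard reporter of clock output because CLOCK and BMAL1 drive it directly. It had 2.89, 3.59 and 3.69 CPM in juvenile E. coli libraries, 10.09, 8.90 and 10.04 CPM in juvenile PBS, 6.00, 4.49 and 4.46 CPM in neonatal E. coli and 7.14, 4.86 and 8.66 CPM in neonatal PBS libraries. The 3 juvenile E. coli libraries were the lowest of all 12 and the 3 juvenile PBS libraries the highest, while the neonatal groups lay between and overlapped each other. In raw counts these were 23, 26 and 29 reads against 70, 54 and 63 reads in juveniles. Dbp fell by 1.51 ± 0.25 on the log2 scale in juvenile E. coli against juvenile PBS (edgeR adjusted p = 0.000452). The call held in all 21 alternatives, with log2 fold changes from -1.58 to -1.43 and adjusted p from 7.12e-06 to 0.00372. In neonates the log2 fold change was -0.46 ± 0.24 (adjusted p = 0.506). The difference of the 2 responses was -1.06 ± 0.35 with an adjusted p of 0.0842 in edgeR and of 0.0278 in limma voom, so the fall was not shown to differ between ages by the test used throughout. Between ages Dbp was not called, at 0.50 ± 0.24 (adjusted p = 0.282) in PBS libraries and -0.56 ± 0.26 (adjusted p = 0.156) in E. coli libraries, although in both the groups did not overlap.

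The Dbp locus carries a limit of the counting. The last 539 exon bases of Dbp (45709665 to 45710203, 18.01% of its exon bases) are also annotated exon of Sphk2, a sphingosine kinase gene on the opposite strand. The cDNA kit does not mark strand, so reads from those bases cannot be assigned to one gene or the other. Sphk2 had 21.4, 26.8 and 24.5 CPM in juvenile E. coli libraries, 38.3, 34.4 and 36.4 CPM in juvenile PBS, 31.1, 29.7 and 27.4 CPM in neonatal E. coli and 36.4, 25.7 and 36.4 CPM in neonatal PBS libraries. It fell by 0.59 ± 0.14 on the log2 scale in juvenile E. coli against juvenile PBS (edgeR adjusted p = 0.00725, fold 0.666, against 0.351 for Dbp). Over the 12 libraries Pearson's r between the log2 CPM of Dbp and Sphk2 was 0.947, and it was 0.889 for deviations from the group means. These points share libraries, depth and possibly reads, and the share of Dbp counts that came from the overlap was not tested.

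**Figure D3:**
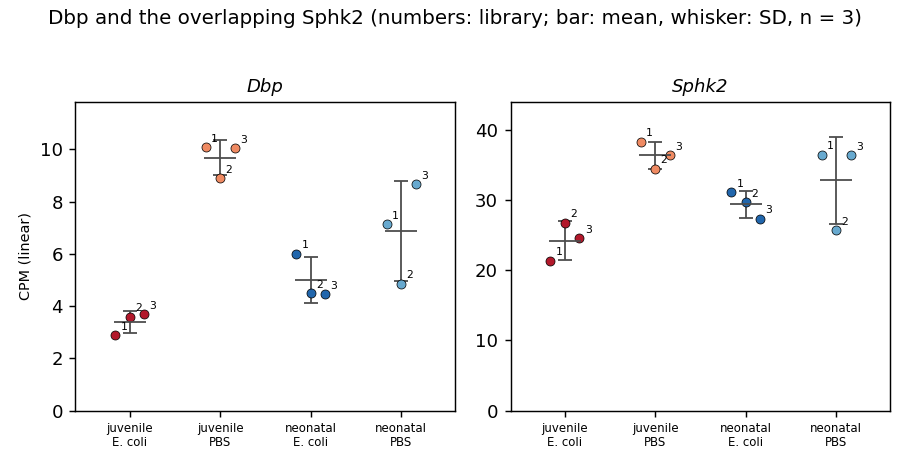
CPM (vertical, linear) of Dbp and of Sphk2, which overlap on opposite strands, in the 12 libraries by group (horizontal), with bars for means and whiskers for SD (n = 3). In both genes all 3 juvenile E. coli libraries lie below all 3 juvenile PBS libraries, and neonatal PBS library 2 is the lowest of its group.

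Tef (chromosome 15, 81802421 to 81826863) encodes thyrotroph embryonic factor, a PAR bZIP activator first known from the pituitary. Of the PAR bZIP genes its level differed least between groups. It averaged 10.2 ± 1.72 CPM in juvenile E. coli, 12.97 ± 1.796 CPM in juvenile PBS, 9.29 ± 0.277 CPM in neonatal E. coli and 10.5 ± 0.735 CPM in neonatal PBS libraries (SD, n = 3 each). No contrast called it. Its log2 fold change in juvenile E. coli against juvenile PBS was -0.35 ± 0.17 (edgeR adjusted p = 0.152), and in juvenile against neonatal PBS, where the groups did not overlap, 0.31 ± 0.17 (adjusted p = 0.39).

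In edgeR over all 12 libraries neither of the 2 REV-ERB receptors was called in any contrast, though Nr1d2 was in some alternatives between ages. Nr1d1 (chromosome 11, 98767932 to 98775333) had 4.78, 9.39 and 9.53 CPM in juvenile E. coli libraries, 7.35, 6.43 and 8.13 CPM in juvenile PBS, 10.98, 11.97 and 9.93 CPM in neonatal E. coli and 7.73, 5.83 and 8.66 CPM in neonatal PBS libraries. The 3 neonatal E. coli libraries were the highest of the 12. The log2 fold change was 0.57 ± 0.25 in neonatal E. coli against neonatal PBS (edgeR adjusted p = 0.365) and 0.11 ± 0.25 in juvenile E. coli against juvenile PBS (adjusted p = 0.793). Nr1d1 shares 263 exon bases (98768157 to 98768419, 8.55% of its exon bases) with Thra, the thyroid hormone receptor alpha gene on the opposite strand, so here too reads cannot be assigned by strand. Thra averaged 11.9 ± 4.17 CPM in juvenile E. coli, 16.1 ± 3.24 CPM in juvenile PBS, 15.2 ± 2.04 CPM in neonatal E. coli and 15.4 ± 1.25 CPM in neonatal PBS libraries and edgeR called it in no contrast over all 12 libraries. Thra was called lower in juvenile E. coli than in juvenile PBS libraries by limma voom (adjusted p = 0.00532) and by edgeR without juvenile E. coli library 3 (log2 fold change -0.76, adjusted p = 0.013). It was likewise called lower than in neonatal E. coli libraries by limma voom (0.0274) and without that library (-0.67, adjusted p = 0.031).

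Nr1d2 (chromosome 14, 18204054 to 18239127) was the receptor with the higher mean CPM in every group. Per kilobase of exon it was level with Nr1d1 in neonatal E. coli libraries (3.64 ± 0.321 against 3.56 ± 0.331). It had 20.9, 22.2 and 29.0 CPM in juvenile E. coli libraries, 28.2, 23.9 and 27.7 CPM in juvenile PBS, 21.7, 18.8 and 18.6 CPM in neonatal E. coli and 16.2, 20.1 and 18.3 CPM in neonatal PBS libraries. The juvenile PBS libraries lay above the neonatal PBS libraries with no overlap. That difference was 0.55 ± 0.15 on the log2 scale and just missed the threshold (edgeR adjusted p = 0.0551). It passed in 6 of 21 alternatives, among them DESeq2 and the fits without juvenile E. coli library 1 (adjusted p = 0.0436), without juvenile E. coli library 3 (0.0302) or without juvenile PBS library 2 (0.0309).

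The Period genes encode the feedback inhibitors of the loop. Per1 (chromosome 11, 69095217 to 69109960) also responds directly to cyclic AMP and glucocorticoid signals. It had 41.1, 44.3 and 63.3 CPM in juvenile E. coli libraries, 46.0, 26.9 and 67.9 CPM in juvenile PBS, 53.7, 74.5 and 70.2 CPM in neonatal E. coli and 43.1, 48.5 and 31.7 CPM in neonatal PBS libraries. The juvenile PBS libraries spread the most, by 26.9 to 67.9 CPM, and only the neonatal groups were free of overlap between E. coli and PBS. In neonates the log2 fold change after E. coli was 0.68 ± 0.26 (edgeR adjusted p = 0.287). It was called in 2 of 21 alternatives, a fit of the neonatal groups alone (adjusted p = 0.0345) and limma voom (0.048). In juveniles it was 0.08 ± 0.26 (adjusted p = 0.858), and the difference of the 2 responses was -0.60 ± 0.37 (adjusted p = 0.361 in edgeR, 0.0442 in limma voom).

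Per2 and Per3 were low and were called in no contrast and in none of the alternatives. Per2 (chromosome 1, 91415982 to 91459324) averaged 6.24 ± 0.410 CPM in juvenile E. coli, 5.72 ± 2.25 CPM in juvenile PBS, 7.73 ± 2.00 CPM in neonatal E. coli and 6.49 ± 0.982 CPM in neonatal PBS libraries (SD, n = 3 each). Its log2 fold changes lay between -0.31 and 0.26 in the 5 contrasts, each with an SE of 0.27 to 0.39. Per3 (chromosome 4, 151003652 to 151044665) had 18, 22 and 21 counts in juvenile E. coli libraries, 21, 1 and 24 in juvenile PBS, 17, 24 and 22 in neonatal E. coli and 6, 23 and 21 in neonatal PBS libraries. The 1 count in juvenile PBS library 2 (0.165 CPM) was below the 3 counts taken as the floor, and the 6 counts in neonatal PBS library 1 (0.892 CPM) were the next lowest. All other libraries lay between 2.17 and 3.83 CPM. Its log2 fold changes in the 5 contrasts had SEs of 0.58 to 0.85.

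Arntl and Clock encode the activators of the loop. Arntl (chromosome 7, 113207465 to 113314126) had 20.9, 19.2 and 25.0 CPM in juvenile E. coli libraries, 20.6, 17.1 and 18.01 CPM in juvenile PBS, 13.2, 15.2 and 16.6 CPM in neonatal E. coli and 18.6, 18.5 and 12.4 CPM in neonatal PBS libraries. The juvenile E. coli libraries lay above the neonatal E. coli libraries with no overlap, and Arntl was higher there by 0.54 ± 0.17 on the log2 scale (edgeR adjusted p = 0.0397). The call held in 13 of 21 alternatives. It was lost without any 1 of the 6 E. coli libraries, with adjusted p of 0.0838, 0.0525 and 0.132 without juvenile E. coli libraries 1, 2 and 3, and of 0.167, 0.0985 and 0.0506 without neonatal E. coli libraries 1, 2 and 3. After PBS the age difference was 0.17 ± 0.17 (adjusted p = 0.681). Infection moved Arntl by 0.22 ± 0.17 in juveniles (adjusted p = 0.366) and by -0.15 ± 0.18 in neonates (adjusted p = 0.84), neither of which passed.

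Clock (chromosome 5, 76209868 to 76304792) had 49.0, 64.5 and 66.0 CPM in juvenile E. coli libraries, 58.2, 51.2 and 56.4 CPM in juvenile PBS, 46.1, 48.6 and 50.8 CPM in neonatal E. coli and 41.5, 51.2 and 49.98 CPM in neonatal PBS libraries. Its log2 fold changes ranged from 0.03 ± 0.13 in neonatal E. coli against neonatal PBS to 0.30 ± 0.12 in juvenile against neonatal E. coli (edgeR adjusted p = 0.109). That largest value was called by limma voom (adjusted p = 0.0164) and without juvenile E. coli library 1 (adjusted p = 0.0309).

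Ratios of raw counts within a library cancel its depth. Arntl had 7.22, 5.35 and 6.79 reads per Dbp read in juvenile E. coli libraries, 2.04, 1.93 and 1.79 in juvenile PBS, 2.19, 3.39 and 3.71 in neonatal E. coli and 2.60, 3.80 and 1.43 in neonatal PBS libraries. The juvenile E. coli libraries stood above the other 9. Nr1d1 had 1.65, 2.62 and 2.59 reads per Dbp read in juvenile E. coli, 0.729, 0.722 and 0.809 in juvenile PBS, 1.83, 2.67 and 2.23 in neonatal E. coli and 1.08, 1.2 and 1.0 in neonatal PBS libraries. This second ratio was at least 1.65 in all 6 E. coli libraries and at most 1.2 in all 6 PBS libraries. Of the other ratios taken, Arntl per Nr1d1 and Per1 per Per2 overlapped between E. coli and PBS libraries at both ages. In juveniles Arntl per Nr1d1 was 4.37, 2.04 and 2.63 after E. coli and 2.80, 2.67 and 2.22 after PBS. Hlf per Dbp did not overlap at either age, with 5.65, 11.85 and 3.66 against 1.51, 1.52 and 1.97 in juveniles. These ratios are descriptions of the levels given above and carry no test of their own.

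In some juvenile libraries most members deviated the same way. The share of all genes tested that did so was not computed, and deviations within a group cancel. Across genes juvenile PBS library 2 was also the furthest from its group. Its chi-square per degree of freedom was 15.2 against library 1 and 20.7 against library 3, and 4.64 between libraries 1 and 3. The counts of members below therefore only describe the libraries, and whether they are particular to clock genes was not tested. All 10 were below their group mean (log2 CPM) in juvenile PBS library 2, with a median deviation of -0.16 and Per3 at -2.03. In juvenile PBS library 3, 9 of the 10 were above the mean. In juvenile E. coli library 1, 9 of the 10 were below the mean (median -0.22, lowest Nr1d1 at -0.63), and in juvenile E. coli library 3, 8 were above it. In juvenile E. coli library 2, Hlf stood 1.0 above its mean and the other 9 members between -0.17 and 0.30. In the neonatal groups between 3 and 7 members of each library lay above the mean, and the largest deviation was that of Per3 in neonatal PBS library 1 (-1.08). Juvenile PBS library 2 and neonatal PBS library 1 were the libraries of their groups with the most immature T cell transcripts. The 9 counted immature T cell markers summed to 1009, 1033 and 913.2 CPM in juvenile E. coli libraries, 752.3, 1139 and 698.4 CPM in juvenile PBS, 727.7, 764.3 and 708.4 CPM in neonatal E. coli and 1392, 863.2 and 819.5 CPM in neonatal PBS libraries. With both of those libraries left out, the members called were the same in number in each of the 5 contrasts: 1 and 0 for the juvenile and neonatal responses, 0 for their difference, and 1 and 2 between ages after PBS and after E. coli. The juvenile libraries that stayed in were not level in these markers, at 913.2 to 1033 CPM after E. coli and 752.3 and 698.4 CPM after PBS. The unchanged number of calls is therefore no check on immature cells in the juvenile response. The part of immature cells there and in the low Per3 values was not tested.

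**Figure D4:**
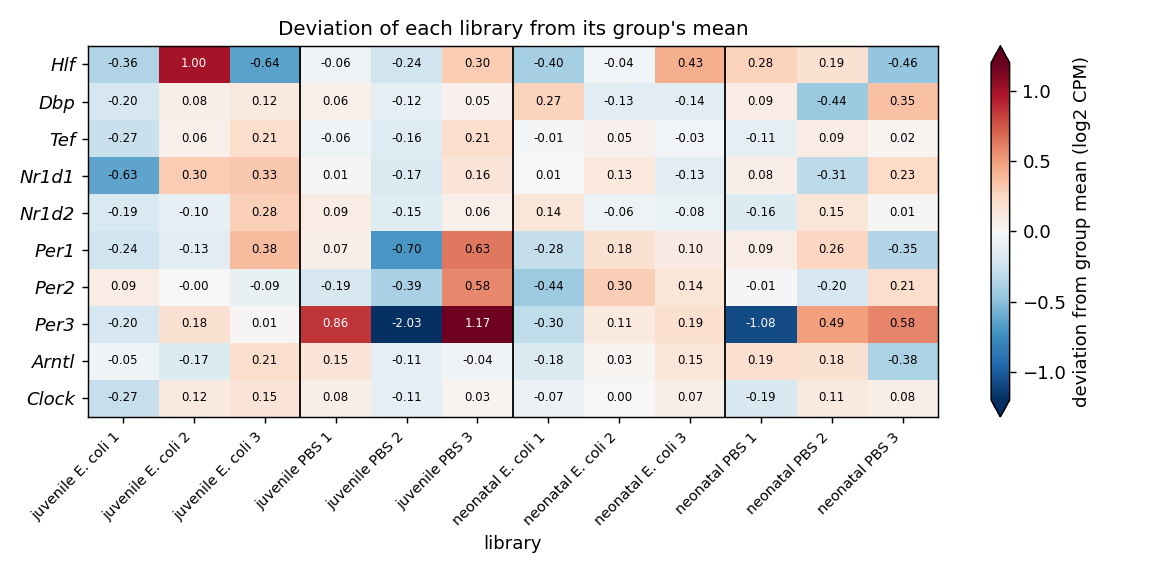
Deviation of each library (horizontal) from its group's mean on the log2 CPM scale (colour, with the value printed) for the 10 genes (vertical). Juvenile PBS library 2 is below its mean in all 10 genes, with Per3 at -2.03 beyond the colour range, and Hlf stands 1.0 above its mean in juvenile E. coli library 2.

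A few other genes of the core loop rose after infection, most of all Bhlhe40 in juveniles. Of 10 such genes, 9 were counted (Ciart was not analysed here) and 7 were tested, Rorb having 0 counts in all 12 libraries and Arntl2 0 to 4 counts in each. By edgeR, in juvenile E. coli against juvenile PBS 3 of the 7 rose, 0 fell and 4 did not pass, beside the 15.4% and 9.42% of all genes given above. In neonatal E. coli against neonatal PBS 1 rose, 0 fell and 6 did not pass, beside 1.05% and 0.145%. The juvenile response was the higher one for 3 of the 7 and the lower one for 0, beside 5.05% and 1.94%. Between ages, 1 was higher and 0 lower after PBS, beside 1.75% and 2.32%, and 4 were higher and 0 lower after E. coli, beside 11.3% and 6.42%. After PBS, DESeq2 also called 1 of the 7 lower in juveniles (Bhlhe40) and limma voom 2 (Bhlhe40 and Nfil3). The list's median log2 fold change was 0.93 for the juvenile response, 0.34 for the neonatal response, 0.56 for their difference, 0.17 between ages after PBS and 0.56 after E. coli.

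Bhlhe40, an E-box repressor that T cells also induce on activation, had 228.0, 212.7 and 199.8 CPM in juvenile E. coli libraries, 30.7, 32.1 and 55.2 CPM in juvenile PBS, 118.7, 157.8 and 157.9 CPM in neonatal E. coli and 62.3, 57.5 and 67.6 CPM in neonatal PBS libraries. The E. coli and PBS libraries did not overlap at either age. It rose by 2.44 ± 0.18 in juveniles (log2, edgeR adjusted p = 7.08e-07) and by 1.21 ± 0.17 in neonates (adjusted p = 0.003), and the difference of responses was 1.23 ± 0.25 (adjusted p = 0.00862). Juvenile E. coli libraries exceeded neonatal E. coli libraries by 0.56 (adjusted p = 0.0304), a call lost without juvenile E. coli library 1 (0.108) or 2 (0.086) and without neonatal E. coli library 1 (0.153) or 2 (0.0525). After PBS it was lower in juvenile than in neonatal libraries with no overlap, at a log2 fold change of -0.67 ± 0.18, and missed the threshold (adjusted p = 0.0542). That difference passed in 5 of 21 alternatives, among them the fit without juvenile PBS library 3 (-0.99, adjusted p = 0.00281). Bhlhe41, its paralog, averaged 4.45 ± 0.980 CPM in juvenile E. coli, 2.33 ± 0.853 CPM in juvenile PBS, 5.59 ± 0.496 CPM in neonatal E. coli and 2.74 ± 0.897 CPM in neonatal PBS libraries and was called by edgeR at neither age (adjusted p = 0.0567 in juveniles and 0.173 in neonates). In juveniles it was called higher by limma voom (0.014) and by edgeR without juvenile E. coli library 3 (0.042) or without juvenile PBS library 3 (0.0344).

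Nfil3, the repressor that competes with the PAR bZIP factors at D-boxes, had 58.9, 63.5 and 47.4 CPM in juvenile E. coli libraries, 11.4, 24.7 and 14.2 CPM in juvenile PBS, 22.6, 32.7 and 22.0 CPM in neonatal E. coli and 24.4, 23.9 and 17.8 CPM in neonatal PBS libraries. The juvenile E. coli libraries were above the other 9. Nfil3 rose by 1.76 ± 0.24 in juveniles (log2, edgeR adjusted p = 8.23e-05), was at 0.23 in neonates without passing the test, and differed between the 2 responses by 1.54 ± 0.33 (adjusted p = 0.0127). Between E. coli groups it was higher in juveniles by 1.13 (adjusted p = 0.00241), where Dbp was at -0.56 without passing the test. Between PBS groups it was at -0.41 (adjusted p = 0.439), and it was called there by limma voom and without juvenile PBS library 2 (-0.79, adjusted p = 0.0441).

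Rora, which activates Arntl at RORE elements and is known in type 17 and tissue helper cells, had 597.9, 634.2 and 583.7 CPM in juvenile E. coli libraries, 266.7, 317.1 and 278.5 CPM in juvenile PBS, 186.1, 228.8 and 283.2 CPM in neonatal E. coli and 194.4, 226.1 and 186.4 CPM in neonatal PBS libraries. It rose by 1.08 ± 0.13 in juveniles (log2, edgeR adjusted p = 2.46e-05), was at 0.20 in neonates, and the responses differed by 0.87 ± 0.18 (adjusted p = 0.00872). It was higher in juveniles than in neonates by 1.38 after E. coli and by 0.51 ± 0.13 after PBS (adjusted p = 0.0332). The call after PBS held in 15 of 21 alternatives. It was lost without juvenile PBS library 1 (0.0585), 2 (0.0655) or 3 (0.0573) and without neonatal PBS library 1 (0.113) or 3 (0.103). It was also lost with both libraries rich in immature T cell transcripts left out (log2 fold change 0.40, edgeR adjusted p = 0.168).

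The cryptochromes, the partners of the PER proteins, were called by edgeR over all 12 libraries in no contrast. Cry1 averaged 61.2 ± 6.08 CPM in juvenile E. coli, 76.5 ± 17.9 CPM in juvenile PBS, 63.6 ± 4.88 CPM in neonatal E. coli and 68.2 ± 5.66 CPM in neonatal PBS libraries. Cry2 averaged 14.4 ± 0.748 CPM in juvenile E. coli, 18.6 ± 9.44 CPM in juvenile PBS, 19.8 ± 3.29 CPM in neonatal E. coli and 15.6 ± 1.60 CPM in neonatal PBS libraries. Single libraries decided whether they passed. Cry1 was called lower in juvenile E. coli than in juvenile PBS without juvenile PBS library 3 (log2 fold change -0.44, edgeR adjusted p = 0.0367, against -0.32 and 0.114 with it). Cry2 was called for a lower juvenile than neonatal response without juvenile PBS library 2 (-0.96, adjusted p = 0.0488). Npas2, a paralog of Clock, was low, at 3.65 ± 1.62 CPM in juvenile E. coli, 1.95 ± 0.866 CPM in juvenile PBS, 0.866 ± 0.673 CPM in neonatal E. coli and 0.690 ± 0.821 CPM in neonatal PBS libraries. It was called higher in juvenile than in neonatal E. coli libraries by 2.08 ± 0.65 (log2, edgeR adjusted p = 0.038), which was lost without juvenile E. coli library 1 (0.0691) or 2 (0.189) or neonatal E. coli library 1 (0.126) or 2 (0.147).

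**Figure D5:**
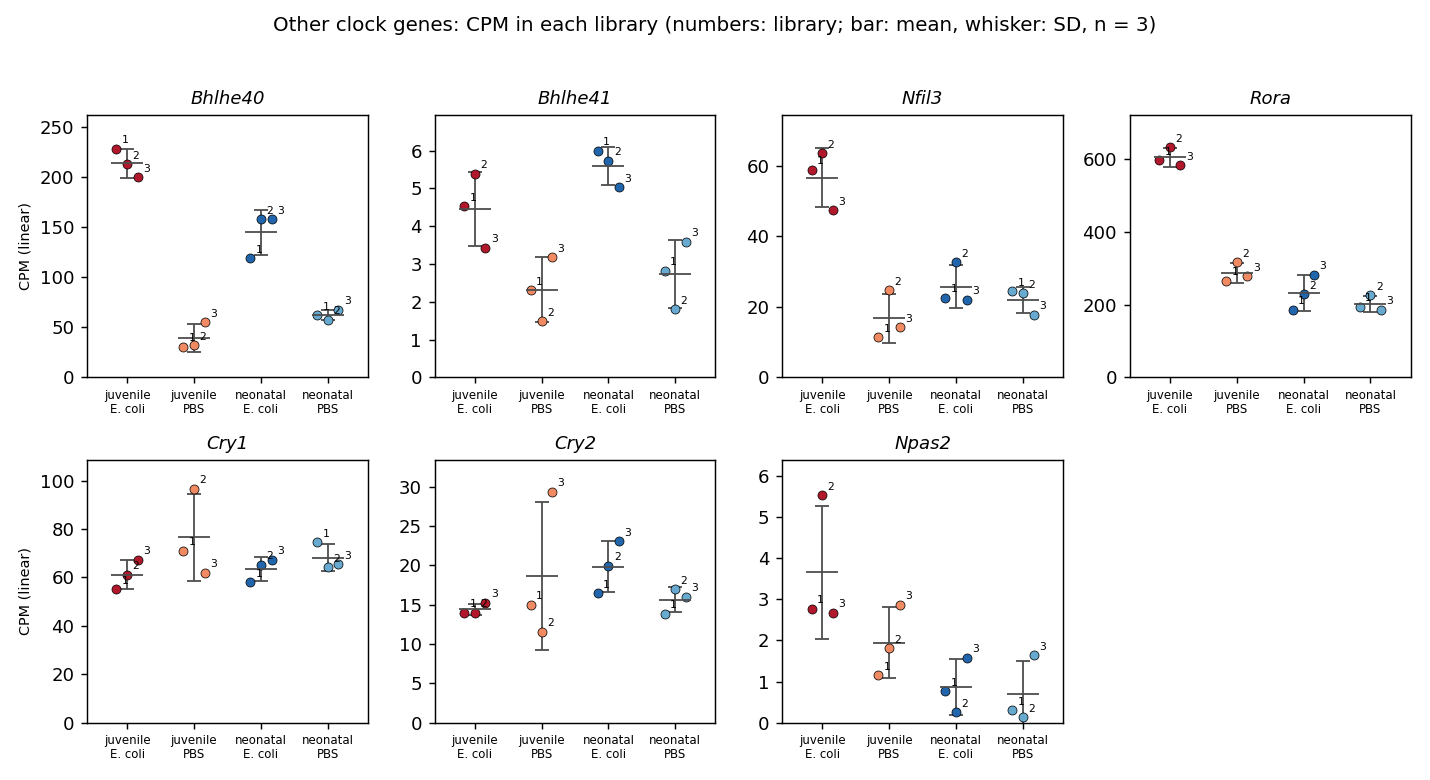
CPM (vertical, linear) of 7 other clock genes in the 12 libraries by group (horizontal), with numbered points for libraries, bars for means and whiskers for SD (n = 3). Bhlhe40, Nfil3 and Rora are highest in the 3 juvenile E. coli libraries (199.8 to 228.0, 47.4 to 63.5 and 583.7 to 634.2 CPM).

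The kinases and ubiquitin ligases of clock proteins were not called by edgeR, with 0 of 8 tested in each of the 5 contrasts. At an unadjusted p under 0.05 there was 1 in each of juvenile E. coli against juvenile PBS, the difference of responses and juvenile against neonatal E. coli. Of all genes 36.96%, 22.19% and 30.87% passed there. In the neonatal response and between PBS groups there were 0, beside 12% and 17.84% of all genes. DESeq2 called 0 in all 5, and limma voom 2 in juvenile E. coli against juvenile PBS, 1 in juvenile against neonatal E. coli and 0 in the others. Of 7 coregulators, Tbl1xr1, a subunit of the NCoR complex, rose in juveniles by 0.24 ± 0.08 (log2, edgeR adjusted p = 0.0341, lost in 8 of 12 fits without 1 library). Between E. coli groups Kmt2a (counted as Mll1), a histone methyltransferase and CLOCK partner, was higher in juveniles by 0.44 (adjusted p = 0.0012) and Ncor1, the corepressor of REV-ERB, by 0.20 (adjusted p = 0.04, lost in 10 of 12 such fits). Of 7 genes known as clock outputs in other tissues, 1 rose and 1 fell in juveniles after E. coli, beside 15.4% and 9.42% of all genes. In neonates 0 were called, beside 1.05% higher and 0.145% lower. Nampt, an enzyme of NAD synthesis, had 192.8, 158.7 and 139.0 CPM in juvenile E. coli libraries, 56.0, 63.8 and 61.5 CPM in juvenile PBS, 72.8, 76.2 and 60.5 CPM in neonatal E. coli and 55.0, 58.5 and 60.3 CPM in neonatal PBS libraries. It rose in juveniles by 1.44 ± 0.12 (adjusted p = 2.13e-06), its response was higher in juveniles by 1.17 ± 0.17 (adjusted p = 0.00165), and it was higher in juvenile than in neonatal E. coli libraries by 1.23 (adjusted p = 6.14e-06). Usp2, a deubiquitinase whose transcript cycles daily in liver, had 1.64, 3.87 and 4.70 CPM in juvenile E. coli libraries, 6.63, 5.27 and 7.17 CPM in juvenile PBS, 6.25, 4.99 and 5.90 CPM in neonatal E. coli and 3.72, 4.86 and 3.76 CPM in neonatal PBS libraries. It fell in juveniles by 0.90 ± 0.32 (adjusted p = 0.049, lost in 9 of 12 such fits).

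Glucocorticoids reset peripheral clocks, so 9 glucocorticoid-induced genes were read beside the set, of which all were tested. In juveniles after E. coli 2 rose and 3 fell, beside 15.4% and 9.42% of all genes tested. In neonates 1 rose (Sgk1) and 0 fell, beside 1.05% and 0.145%. In juvenile against neonatal PBS libraries 4 were higher (Cxcr4, Dusp1, Il7r and Tsc22d3) and 0 lower, beside 1.75% and 2.32%. The Il7r call there was lost without juvenile PBS library 1 (0.057) or neonatal PBS library 1 (0.0734) or 3 (0.0547). Tsc22d3, the glucocorticoid-induced leucine zipper, had 123.5, 169.3 and 211.3 CPM in juvenile E. coli libraries, 461.2, 589.8 and 423.6 CPM in juvenile PBS, 219.8, 193.3 and 235.8 CPM in neonatal E. coli and 249.2, 266.7 and 252.2 CPM in neonatal PBS libraries. Like Dbp it was highest in juvenile PBS and fell in juveniles after E. coli (edgeR adjusted p = 9.77e-06). Cxcr4, a homing receptor, fell by 1.15 (adjusted p = 0.000277) and Il7r, the interleukin 7 receptor, by 0.75 (adjusted p = 7.49e-05), whereas Ddit4 and Sgk1 of the same list rose by 1.03 and 0.90. The list was split in direction, with a median log2 fold change of 0.06. Its response in juveniles was lower than in neonates for 2 genes (Cxcr4 and Tsc22d3), beside 1.94% of all genes. Between E. coli groups 2 were higher in juveniles (Ddit4 by 1.08 and Zbtb16 by 1.70) and 0 lower, beside 11.3% and 6.42%. Zbtb16, a transcription factor of innate-like T cells, had 16.2, 5.39 and 28.3 CPM in juvenile E. coli libraries and 3.96, 4.86 and 6.62 CPM in neonatal E. coli libraries. The E. coli groups overlapped, limma voom did not call Zbtb16 between them, and the call was lost without juvenile E. coli library 3 (edgeR adjusted p = 0.0592) or neonatal E. coli library 1 (0.0624). Tsc22d3 was called lower in juveniles there by limma voom and, by edgeR, without juvenile E. coli library 3 (-0.56, adjusted p = 0.0164). For the difference of responses both DESeq2 and limma voom called 4 genes lower, adding Dusp1 and Il7r.

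The genes whose log2 CPM followed a member most closely over the 12 libraries were ranked by Pearson's r among 8058 genes whose log2 CPM averaged 3 or more. The libraries fall into 4 groups, so these values are descriptions. For Dbp they were Fam78a (0.951), Sphk2 (0.947), L3mbtl2 (0.929) and Rassf5 (0.924), and for Hlf they were Ccl5 (0.910), Sorl1 (0.904), Trps1 (0.901) and Pnpla6 (0.900). For deviations from the group means r was lower, at 0.586 to 0.689 for these Hlf genes. It was 0.889 for Sphk2 and 0.612 to 0.658 for the other Dbp genes. Ccl5, a chemokine of effector and memory T cells, had 17.6, 26.1 and 16.9 CPM in juvenile E. coli libraries, 8.501, 7.251 and 7.014 CPM in juvenile PBS, 4.34, 2.74 and 4.61 CPM in neonatal E. coli and 1.78, 2.36 and 1.63 CPM in neonatal PBS libraries, and like Hlf it was highest in juvenile E. coli library 2. For Nr1d1 the nearest were Baiap2 (0.914), Egr1 (0.851), Tra2b (0.850) and Lamp1 (0.823), for Per3 Zrsr2 (0.951), Snx29 (0.943), Orai1 (0.907) and Rapgef2 (0.885), and for Arntl Med13 (0.852), Arsb (0.849), Bag3 (0.848) and Eif4e3 (0.841). For deviations r was 0.714 to 0.888 for the Nr1d1 genes, 0.877 to 0.971 for the Per3 genes and 0.620 to 0.760 for the Arntl genes. The Per3 values turned on juvenile PBS library 2, where Zrsr2, a splicing factor, had 34.8 CPM beside 52.7 and 54.2 CPM in the other 2 libraries of the group, and Snx29, a sorting nexin, had 5.77 CPM beside 12.2 and 13.1 CPM.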

How the data were processed

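RNA was measured in 12 libraries. Per the labels' protocols, total RNA was turned into cDNA with a kit that does not mark strand, amplified and sequenced as paired ends. Per the submitters' processing notes, CASAVA 1.8.4 and STAR were used with GRCm38 (mm10). The deposited values are raw counts per gene symbol, made with SeqMonk as the table is named by the authors. The sources used here do not give its version, strand setting or annotation.

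Genes were filtered with filterByExpr (minimum count 10, minimum total count 15), leaving 11062 genes with 99.9% of the counts. edgeR 4.0.16, run in R 4.3.3, gave the quasi-likelihood F test with TMM scaling on the 4 group means of all 12 libraries, adjusted by Benjamini-Hochberg over all genes tested (threshold 0.05). The common biological coefficient of variation was 0.123. CPM are counts over TMM-scaled library totals, and log2 CPM used a prior count of 2. The fit was tested on simulated data. Alternatives were RLE and upper-quartile scaling, 2 other filters, DESeq2 1.42.0, voom (limma 3.58.1), only the groups compared, a replicate block, each library left out, and 2 libraries rich in immature T cell transcripts left out. Tables and figures used Python 3.11.15. The p-values measure the spread between pools of mice.

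The members and the lists were chosen with earlier results of these data known. Named genes are the members, the other core clock genes, up to 3 called genes of smallest p per other list and contrast, genes whose exons overlap a member's, and the 4 genes most like Hlf, Dbp, Nr1d1, Per3 and Arntl, without predicted genes or antigen receptor segments. Of 132 list genes 126 were counted, 4 under an older symbol; results on 2 further genes are not reported here. Fibroblast and smooth muscle markers summed to 15.2 to 42.2 CPM over the 12 libraries. Coordinates are GRCm38 from GENCODE M21. Protein sequences were not used here.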

Additional observations from a re-analysis of the deposited data

Results flagged for a closer look

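The test of the difference between the juvenile and the neonatal response to E. coli (edgeR interaction term, adjusted over all 11062 genes) picked out 3 clock genes, none of them among the 10 members. Of all genes tested it called 5.05% higher and 1.94% lower. Bhlhe40 responded more in juveniles by 1.23 on the log2 scale (SE 0.25, adjusted p = 0.00862), Nfil3 by 1.54 (SE 0.33, adjusted p = 0.0127) and Rora by 0.87 (SE 0.18, adjusted p = 0.00872). All 3 were called in each of the 20 alternatives. Macrophage and epithelial marker sums also reached their highest values in juvenile E. coli libraries (637.9 and 206.2 CPM). The same test called higher 2 of 9 immature T cell, 2 of 8 endothelial, 1 of 6 epithelial and 0 of 9 macrophage markers tested. It called 0 of each of these lists lower. The part of such cells in the differences of the 3 clock genes was not tested.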

How the results depend on the processing

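Over 50 member values (10 genes, 5 contrasts) and up to 21 alternatives, 958 values kept their direction and side of the threshold and 45 uncalled ones changed sign within their error. Another 8 called values lost the call, 14 gained one and 15 uncalled ones moved by more than their error, 4 of them with a change of sign. No called value reversed. The number of members called moved to 2 (Dbp, Hlf) in juvenile E. coli against juvenile PBS with limma voom, to 1 (Per1) in neonatal E. coli against neonatal PBS with voom or only the groups compared (0 with DESeq2), and to 2 (Dbp, Per1) for the difference of responses with voom (0 with DESeq2). In juvenile against neonatal PBS it was 2 (Hlf, Nr1d2) with DESeq2, voom or no filter, and in juvenile against neonatal E. coli 4 with voom (Arntl, Clock and Hlf higher, Per1 lower) and 1 (Hlf) with upper-quartile scaling. Without 1 library it ranged from 1 to 1 for the juvenile response, 0 to 0 for the neonatal response and for the difference, and 1 to 2 between ages, both after PBS and after E. coli. The cause was not tested.

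Replicate numbers did not pair the libraries: of 18 pairs with the same number, 2 correlated above 0.1 in their deviations from group means (r from -0.18 to 0.22, mean -0.03 against 0.02 for other pairs). With the replicate number as a block, members called were 1 and 0 for the juvenile and neonatal responses, 0 for their difference, and 1 and 1 between ages after PBS and after E. coli, so Arntl was no longer called between E. coli groups, and no other member call changed.

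The number of all genes called depended more on the analysis. It was 2747 in juvenile E. coli against juvenile PBS (4480 with voom, 1656 to 3204 without 1 library), 132 in neonatal E. coli against neonatal PBS (238 with DESeq2, 312 with voom, 320 with only the groups compared, 55 to 238 without 1 library) and 774 for the difference (2300 with voom, 368 to 1553). It was 451 in juvenile against neonatal PBS (729 with DESeq2, 927 with voom, 280 with only the groups compared, 177 to 671) and 1964 in juvenile against neonatal E. coli (3810 with voom, 1108 to 2637). The lowest counts came without juvenile E. coli library 2 (1656 and 1108), neonatal PBS library 2 (55), juvenile E. coli library 1 or 2 (368) and neonatal PBS library 1 (177). The highest count of every contrast came without juvenile PBS library 2, also in the contrasts that do not compare its group. Another scaling moved the median of all genes by at most 0.062. The motif search found 9 matches, or 8 in the 250 bases before the start alone. Low depth limits Per3 and Npas2, at 1 to 24 and 1 to 40 counts per library.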
